A study of Danio rerio with 6 samples.

Results

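The genes described here are transcription factors that drive neural progenitors out of the cell cycle and into neuronal fate: the zinc finger repressors *insm1a* and *insm1b*, the SoxC factors *sox11a*, *sox11b*, *sox4a* and *sox4b*, and the bHLH factors *neurog1* and *neurod4*. They were chosen by name and function, as were the gene lists below, with earlier results of these data already known. The shares over all genes printed beside their counts are therefore a description and not an independent test of the group. The 8 names led to 9 of the 34965 genes in the table, and 8 of these 9 had reads. Total mRNA profiles had been made from heads of zebrafish embryos of the AB strain at 36 h post fertilization (hpf), in 3 libraries from siblings labelled wild type and 3 from *prpf31*-/- embryos, a stable knockout line made with CRISPR/Cas9. Each library came from a pool of 35 heads of embryos genotyped from the remaining tissue, and the series calls the libraries of a genotype independent biological replicates. The labels name no other allele and no treatment of either group. *prpf31* is also supplied by the mother in zebrafish, which limits the line as a complete loss of the protein at this age.

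In the developing brain and retina, neurogenesis runs as a relay. Proneural bHLH proteins such as Neurog1 pair with E proteins, switch on Delta ligands and so hold neighbouring cells in the progenitor state through Notch and the Hes/Her repressors. Cells that escape this inhibition turn on Insm1, a SNAG-domain repressor of the progenitor programme, then Neurod-type bHLH factors and the SoxC factors, which activate genes of young neurons such as tubulins. In the zebrafish retina, *insm1a* is also known from the response of Müller glia to injury.

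*prpf31*, which encodes a splicing factor of the U4/U6 snRNP and is the targeted gene, was at 38.7, 37.9 and 37.6 CPM (counts relative to the library size as scaled by TMM) in siblings 1, 2 and 3. It was at 22.4, 24.5 and 27.3 CPM in mutants 1, 2 and 3. Every mutant library lay below every sibling library, with a log2 fold change of -0.62 ± 0.11 (SE; edgeR adjusted p = 0.0180, n = 3 against 3). Library totals ran from 58706617 to 66381302 counts. Mutant 1 stood apart from the other libraries: its TMM factor was 0.816 against 1.02 to 1.06, and 14.5% of its counts fell on its 10 highest genes, a share of 8.14% to 9.54% elsewhere. The summed FPKM of 6 muscle genes was 34048 in mutant 1, 15987 to 15989 in mutants 2 and 3 and 17473 to 19966 in siblings, with none at 0. That of 5 epidermal genes was 14695 in mutant 1, 9321 and 12150 in mutants 3 and 2 and 8303 to 11368 in siblings. The 8 lens genes summed to only 100.1 FPKM in mutant 1, against 649 and 686 in mutants 3 and 2 and 805 to 975 in siblings. The calls and fold changes of the genes described here, and the calls and medians of the lists of the relay, are therefore given with and without mutant 1. The part that tissue makeup plays in any value below was not tested, and in pools of whole heads fewer cells of a type and less RNA per cell cannot be told apart.

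The tables name 2 entries only *SOX4*, of 3258 and 2195 bases, and do not say which copy is which. They are called the longer and the shorter *sox4* entry. Another entry, the one the table pairs with *sox4a*, was listed at 0 counts in all 6 libraries and was not tested. *insm1b* and *sox11b* were taken as the remaining entry of a duplicated name. The 8 genes with reads had 1711 to 24448 counts per library, and all of them passed the filter on low counts.

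All 8 genes had a lower mean in mutant heads. Their median log2 fold change was -0.73, against 0.02 over all 24277 genes tested. Without mutant 1 this median was -0.47, against -0.01 over all genes in that fit. In 7 of the 8 every mutant library lay below every sibling library, which held for 17.4% of all genes tested. At an adjusted p of 0.05 or lower 1 gene, *sox11a*, was called lower and 0 were called higher, where 3.83% of all genes tested were called lower and 3.96% higher. At an unadjusted p under 0.05, 7 of the 8 were lower, against a background of 12.5%. Replicate numbers were taken to pair the libraries, from correlations in these same data and not from the labels. With the number as a block 6 genes were called lower (background 6.61%). Without mutant 1, 6 genes were called lower as well (background 8.17%), and all 6 were the same genes: both *insm1* copies, both *sox11* copies, the longer *sox4* entry and *neurod4*. The other genes, the shorter *sox4* entry and *neurog1*, were called neither in these fits nor under any of the other alternatives, 15 in all. DESeq2 called 4 genes lower (background 6.26%), and edgeR without a low-count filter called 2 (background 2.77%). By contrast, 0 of the 8 were called with library sizes alone or in any limma fit. The same held when mutant 2, mutant 3 or any sibling was left out. Those fits called 110 to 724 of all genes lower.

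**Figure D1:**
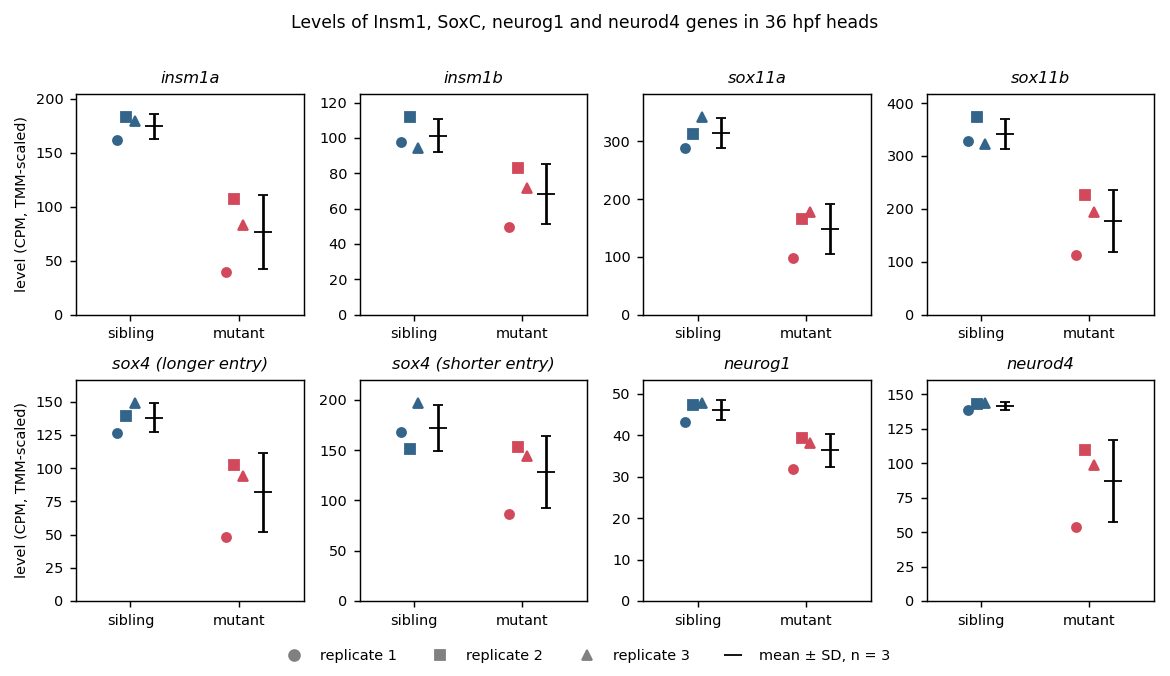
Level of each gene in CPM (TMM-scaled, vertical axes from 0) in the 3 sibling and 3 mutant libraries of 36 hpf heads, with the mean ± SD of each group. Marker shapes give the replicate number, and mutant 1 is the lowest library in all 8 panels.

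Insm1 proteins repress progenitor genes and are needed for the last divisions of neuronal progenitors in mammals. *insm1a* was at 161, 183 and 179 CPM in siblings 1 to 3 and at 39.3, 107 and 83.0 CPM in mutants 1 to 3. All mutants lay below all siblings, and mutant 1 held 22.5% of the sibling mean where mutants 2 and 3 held 61.1% and 47.6%. Its log2 fold change was the largest of the 8 genes in size, -1.19 ± 0.32 (SE), with an edgeR adjusted p of 0.0656 that did not pass the threshold. With the replicate block the change was -1.30 (edgeR adjusted p = 0.0150), and without mutant 1 it was -0.89 (edgeR adjusted p = 0.00411).

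*insm1b*, the second copy, was at 97.5, 112 and 94.3 CPM in siblings and 49.6, 83.2 and 71.8 CPM in mutants. The groups did not overlap, with mutant 2 closest to the siblings. Its log2 fold change of -0.57 ± 0.19 had an edgeR adjusted p of 0.118, which became 0.0392 with the block and 0.0472 without mutant 1. Without mutant 1 the change itself was smaller, at -0.39. Together the 2 copies summed to 149 ± 12.8 FPKM in siblings and 72.2 ± 32.4 FPKM in mutants (SD, n = 3 each). FPKM rest on library totals without TMM scaling. With its TMM factor of 0.816, mutant 1 is therefore lower in FPKM, relative to the other libraries, than in CPM.

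The proportion of the copies was compared within each library, where it does not depend on scaling. *insm1a* made up 62.3%, 62.1% and 65.5% of the counts of the pair in siblings, and 44.2%, 56.2% and 53.6% in mutants. The share was thus lower in every mutant than in any sibling. Its mean was 63.3% ± 1.94 in siblings and 51.3% ± 6.31 in mutants (SD, n = 3 each), and without mutant 1 the difference between the means was -8.40 points. The exact permutation test, which treated the libraries as unpaired, gave p = 0.1 two-sided, the smallest value that 3 libraries against 3 allow. After adjustment over the 4 pairs planned its p was 0.2, so this test cannot pass a threshold of 0.05 and made no call. Within the pairs of equal number the share differed by -18.1, -5.87 and -11.9 points.

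SoxC proteins are high-mobility-group factors that act after the proneural step and activate genes of young neurons. *sox11a* was at 289, 313 and 342 CPM in siblings and at 98.3, 166 and 178 CPM in mutants. The groups were far apart, with the lowest sibling well above the highest mutant. Its log2 fold change was -1.09 ± 0.22 (SE; 95% interval -1.61 to -0.57; edgeR adjusted p = 0.0285), so *sox11a* fell to 47.0% of its sibling level. It also passed a 2-fold threshold, as did 1.22% of all genes tested in that direction. Without mutant 1 the log2 fold change was -0.88 (edgeR adjusted p = 0.00161), under 2-fold. The call was lost when any other library was left out, with edgeR adjusted p values of 0.0610 without mutant 2, 0.0554 without mutant 3, 0.0808 without sibling 1, 0.106 without sibling 2 and 0.118 without sibling 3, and log2 fold changes between -1.25 and -1.03. It was also lost with library sizes alone (edgeR adjusted p = 0.0638) and with limma on log2(FPKM + 1) (adjusted p = 0.0523).

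*sox11b* had the highest level per length of the 8 genes in siblings, 133 ± 12.5 FPKM. Its CPM values were 328, 373 and 322 in siblings and 113, 226 and 193 in mutants, again without overlap. The log2 fold change was -0.94 ± 0.24, with an edgeR adjusted p of 0.0568 over all libraries, 0.0172 with the block and 0.00509 without mutant 1. Leaving out mutant 1 brought the change to -0.71. In the *sox11* pair *sox11a* held 47.9% ± 3.10 of the counts in siblings and 45.6% ± 2.93 in mutants (SD, n = 3 each; exact permutation p = 0.5), a difference of -2.32 points with overlapping groups. Within the pairs of equal number it was -0.30, -3.22 and -3.45 points, lower in all 3 mutants.

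The longer *sox4* entry was at 126, 139 and 149 CPM in siblings and at 48.0, 103 and 94.3 CPM in mutants. Mutants 2 and 3 were close to each other and below all siblings, and mutant 1 was at 34.7% of the sibling mean. The log2 fold change was -0.76 ± 0.26 (edgeR adjusted p = 0.129), and it was called with the block (adjusted p = 0.0319) and without mutant 1 (adjusted p = 0.0129). In the fit without mutant 1 the change was smaller, at -0.50. The shorter entry was at 168, 152 and 196 CPM in siblings and 87.0, 153 and 144 CPM in mutants. Here the groups overlapped, since mutant 2 lay just above sibling 2. Its log2 fold change of -0.42 ± 0.22 was not called over all libraries (edgeR adjusted p = 0.286), with the block (0.141) or without mutant 1 (0.243). The change without mutant 1 was -0.22.

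The longer entry took 43.0%, 47.9% and 43.1% of the *sox4* counts in siblings and 35.5%, 40.1% and 39.6% in mutants. These shares did not overlap either, with a mean difference of -6.24 points and the smallest exact permutation p of 0.1 (0.2 adjusted over 4 pairs planned), and differences of -7.43, -7.78 and -3.52 points within the pairs of equal number. The 4 SoxC entries summed to 359 ± 26.3 FPKM in siblings and 191 ± 76.6 FPKM in mutants (SD, n = 3 each), again without TMM scaling.

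**Figure D2:**
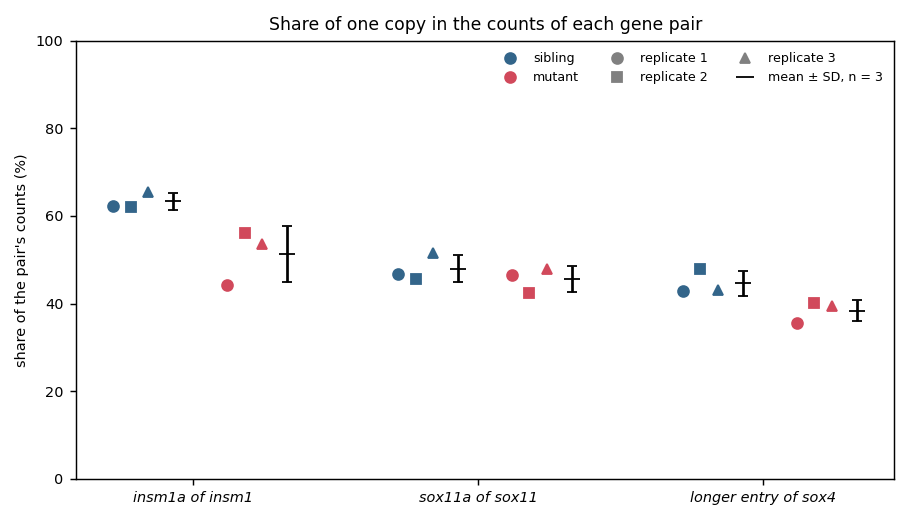
Share (%) of the counts of each gene pair taken by *insm1a*, *sox11a* and the longer *sox4* entry in each library, with the mean ± SD of 3 libraries a group. Sibling and mutant libraries separate in the *insm1* and *sox4* pairs and overlap in the *sox11* pair.

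*neurog1*, a proneural factor of cranial sensory ganglia and of brain neurons, was at 43.3, 47.3 and 47.7 CPM in siblings and at 31.9, 39.3 and 38.1 CPM in mutants. The libraries of each group lay close together and the groups did not overlap. It varied least among the mutants, with a coefficient of variation of 11.0%, where the others ran up to 44.8%. The log2 fold change was -0.34 ± 0.12, with an edgeR adjusted p of 0.131 over all libraries, 0.0771 with the block and 0.0807 without mutant 1. Omitting mutant 1 left a change of -0.26.

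*neurod4* acts downstream of the proneural factors, among others in retinal precursors. It was the most even gene among siblings, at 138, 143 and 143 CPM, and was at 53.4, 109 and 99.0 CPM in mutants. The groups were clearly apart, and mutant 1 was at 37.7% of the sibling mean. The log2 fold change was -0.70 ± 0.24 (edgeR adjusted p = 0.132), and the call was made with the block (edgeR adjusted p = 0.0456) and without mutant 1, where the change was -0.45 (edgeR adjusted p = 0.00909).

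**Figure D3:**
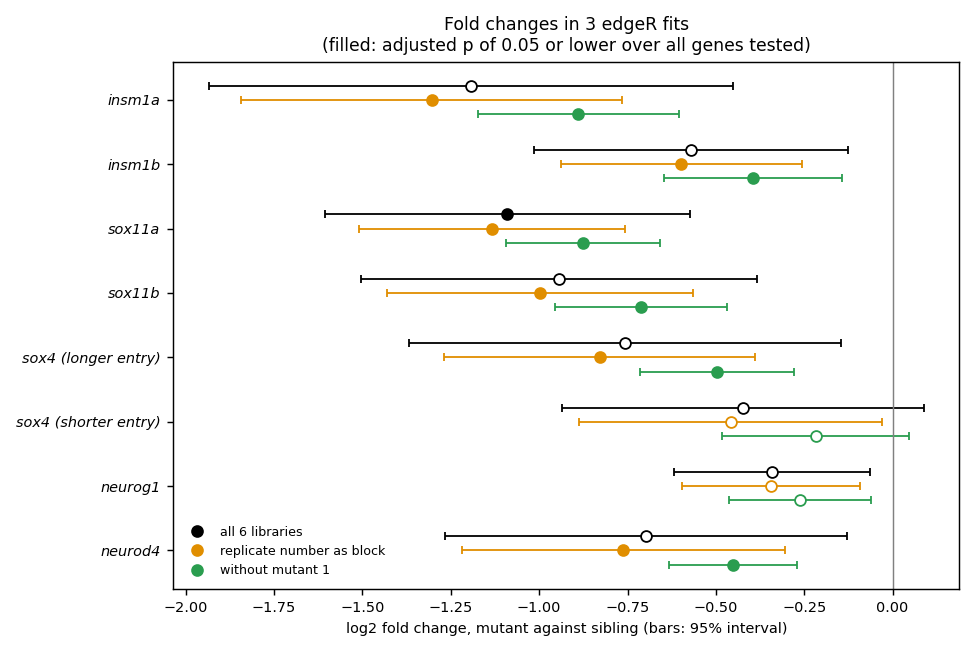
Log2 fold change of each gene, mutant against sibling, with its 95% interval in 3 edgeR fits: all 6 libraries, the replicate number as a block, and without mutant 1. Filled points have an adjusted p of 0.05 or lower over all genes tested, which 1 gene reached in the first fit and the same 6 genes in each of the others.

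Compared per length, the sibling levels ran from *sox11b* through *insm1a* (101 ± 9.15 FPKM), *sox11a* (89.1 to 110.2 FPKM), the shorter *sox4* entry (82.1 ± 11.6 FPKM) and *neurod4* (75.5 ± 3.43 FPKM). They went on with *insm1b* (48.1 ± 4.96 FPKM) and the longer *sox4* entry (44.5 ± 4.62 FPKM) down to *neurog1* (34.7 ± 2.67 FPKM). Neighbours overlapped from *insm1a* to *neurod4*, and *insm1b* overlapped the longer *sox4* entry, while the remaining neighbours did not. In mutants *sox11b* was still the highest in the mean, at 64.8 ± 27.1 FPKM. *insm1a* stood at 41.9 ± 21.9 FPKM there, next to *neurod4* at 43.8 ± 18.9 FPKM, and the libraries of those 2 genes overlapped.

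The 3 mutant libraries differed in how far they lay from the siblings. The median over the 8 genes was 36.2% of the sibling mean in mutant 1, 75.8% in mutant 2 and 69.1% in mutant 3. Mutant 1 was the lowest of the 6 libraries for all 8 genes, which held for 30.3% of all genes tested. Mutant 3 lay below mutant 2 for 7 of the 8, *sox11a* being the exception. Against the sibling of the same number, the mutant was lower in all 3 pairs for 7 genes (background 27.1%), the shorter *sox4* entry being the exception in pair 2. Coefficients of variation ran from 2.03% to 13.3% among siblings.

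Other genes of the relay were examined in 8 lists, of which 107 of 112 entries could be tested. Over these lists 17 entries were called lower and 0 higher in edgeR, where 3.83% of all genes tested were called lower and 3.96% higher, the background for each list below. Without mutant 1 the counts were 34 lower and 9 higher, with backgrounds of 8.17% and 8.22%. Lower were then 5 other neural bHLH genes, 2 E protein or Id genes, 3 SoxB genes and 4 Delta or Hes/Her genes. So were 4 genes of the Insm1 partner list, 5 later neuronal factors, 7 young neuron genes and 4 progenitor genes. Higher were 1 E protein or Id gene, 2 Delta or Hes/Her genes, 1 gene of the Insm1 partner list, 1 later neuronal factor and 4 progenitor genes. Unless another fit is named, the calls and list medians below are from the fit of all libraries. Without mutant 1 the medians were -0.37 for other neural bHLH genes, -0.25 for E proteins and Id and -0.24 for SoxB. They were then -0.17 for Delta and Hes/Her, -0.32 for Insm1 partners, Scratch and Rest, -0.22 for later neuronal factors and -0.16 each for young neurons and progenitors. Among 15 other neural bHLH genes 2 were called lower and the median log2 fold change was -0.56. These were *olig3* (-0.73, edgeR adjusted p = 0.0112), a factor of dorsal hindbrain progenitors, and *olig2* (-0.43, edgeR adjusted p = 0.0446), a factor of motor neuron and oligodendrocyte progenitors. *nhlh2*, the most abundant of the list per length and a factor of newborn neurons, was at 104 CPM in siblings and 70.8 CPM in mutants (edgeR adjusted p = 0.135, and 0.0397 with the block).

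Of the E proteins that bHLH factors pair with and the Id proteins that block this pairing, 1 of 9 was called, *id4*, with a log2 fold change of -1.21 (edgeR adjusted p = 0.00793). The list's median was -0.09, and *id3*, its most abundant gene, was at 65.1 CPM in siblings and 68.6 CPM in mutants. Among 9 SoxB genes, factors that keep progenitors undifferentiated or, as Sox14 and Sox21 do in the chick, counteract this, *sox14* alone was called lower (-0.83, edgeR adjusted p = 0.0464). *sox19a*, the most abundant, was at 213 CPM in siblings and 189 CPM in mutants, and the median was -0.43.

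In the Delta and Hes/Her list 3 of 17 genes were called lower and the median was -0.30. *her13* fell by 1.61 on the log2 scale (edgeR adjusted p = 0.00804), with *hes6*, which promotes neuronal differentiation in other vertebrates, at -1.19 (edgeR adjusted p = 0.00937) and *her4.1*, a Notch target, at -1.17 (edgeR adjusted p = 0.00983). The *her4* copies are near-identical, so reads may be shared among them. The ligand gene *dlb*, the most abundant of the list, was at 293, 315 and 273 CPM in siblings and at 252, 439 and 410 CPM in mutants. Mutant 1 lay below all siblings and mutants 2 and 3 above them, and the log2 fold change of 0.32 (edgeR adjusted p = 0.392) became 0.52 without mutant 1 (edgeR adjusted p = 0.00758). *dlc* also had mutant 1 lowest and mutants 2 and 3 highest, at 94.2, 106 and 104 CPM in siblings and 81.7, 164 and 158 CPM in mutants. The remaining Delta gene of the list, *dld*, went the other way, with mutant 1 highest and mutants 2 and 3 lowest. It was at 178, 173 and 170 CPM in siblings and 265, 158 and 166 CPM in mutants. Its log2 fold change without mutant 1 was -0.11 (edgeR adjusted p = 0.340). *dlc* and *dld* were chosen after their values were seen.

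Insm1 recruits the corepressor complex of Lsd1 (*kdm1a*), Rcor and histone deacetylases in mammals, and Scratch proteins share its SNAG domain. With the repressor gene *rest* this list held 9 genes, of which 3 were called lower, and the median was -0.42. All but *rest* had a log2 fold change below 0. *rest*, chosen after its values were seen, was at 30.3, 30.4 and 28.6 CPM in siblings and 35.8, 38.8 and 38.6 CPM in mutants. Its log2 fold change was 0.34 (edgeR adjusted p = 0.0793), and 0.37 without mutant 1 (edgeR adjusted p = 0.0222). The Scratch genes *scrt1b* and *scrt2* went from 10.8 ± 0.13 to 2.72 ± 1.28 CPM and from 54.6 ± 4.37 to 23.1 ± 7.49 CPM (SD, n = 3 each), with log2 fold changes of -1.98 (edgeR adjusted p = 0.0174) and -1.24 (edgeR adjusted p = 0.0244). The corepressor gene *rcor2* was the third, at -0.90 (edgeR adjusted p = 0.0409). *hdac1*, the most abundant, was at 616 CPM in siblings and 502 CPM in mutants (edgeR adjusted p = 0.287).

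Among 17 later neuronal factors 2 were called lower, the retinal ganglion cell factor *pou4f2* (-1.44, edgeR adjusted p = 0.00866) and *prox1* (-0.54, edgeR adjusted p = 0.0465), and the median was -0.46. The most abundant entry, 1 of 2 named *myt1*, was at 129, 155 and 139 CPM in siblings and at 82.6, 179 and 162 CPM in mutants, with mutant 1 lowest and mutants 2 and 3 highest. The other *myt1* entry was at 123 CPM in siblings and 85.3 CPM in mutants (edgeR adjusted p = 0.264). Of 18 genes of young neurons 3 were called lower, with a median of -0.34. *tubb5* fell from 526 ± 25.5 to 229 ± 59.7 CPM, *tuba1a* from 427 ± 30.6 to 219 ± 43.7 CPM and *stmn1b* from 135 ± 12.1 to 67.6 ± 14.5 CPM (SD, n = 3 each; edgeR adjusted p = 0.0149, 0.0174 and 0.0174), and they encode tubulins and a tubulin-binding protein.

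Of 13 neural progenitor genes 2 were called lower, the radial glial genes *fabp7a* (-1.23, edgeR adjusted p = 0.0153) and *gfap* (-0.54, edgeR adjusted p = 0.0326), and the median was -0.31. *pcna*, a replication factor and the most abundant of them, was at 646 ± 18.9 CPM in siblings and 601 ± 96.0 CPM in mutants. Without mutant 1, 4 genes of this list were called lower and 4 higher. The latter were chosen for description after their values were seen: *notch3*, for example, was at 638, 706 and 609 CPM in siblings and at 573, 1030 and 1043 CPM in mutants, and *ccnd1*, a cyclin of the G1 phase, at 325, 353 and 358 CPM in siblings and 354, 627 and 608 CPM in mutants. Both *notch1* entries made up the rest. For *notch3*, as for *dlb* and *dlc*, mutant 1 was the lowest of the 6 libraries and mutants 2 and 3 the highest. For *dld* mutant 1 was instead the highest and mutants 2 and 3 the lowest.

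By library, the median log2 ratio to the sibling mean over the 8 Insm1, SoxC and bHLH genes was -1.47 in mutant 1, -0.40 in mutant 2 and -0.53 in mutant 3. The other neural bHLH genes came close to this in mutants 2 and 3, with medians of -1.11, -0.42 and -0.40 in the same order. The median of the young neuron genes was -0.87, -0.14 and -0.23, and that of the progenitor genes was -0.46, -0.06 and -0.25. The marker lists of other tissues moved with mutant 1: its muscle median was 1.08, against -0.40 and -0.39 in mutants 2 and 3, its epidermal median was 0.93, against 0.30 and -0.21, and its lens median was -2.79, against -0.31 and -0.53. Erythrocyte genes had medians of -1.64, -0.30 and -0.55 in mutants 1 to 3. In siblings 1 to 3 their medians were -0.81, 0.18 and 0.30, so sibling 1 lay below mutants 2 and 3. Cartilage genes had medians of 0.74, -0.12 and 0.02 in the mutants. Those of macrophages, pigment and neural crest cells and endothelium lay between -0.45 and 0.36 in all 3 mutant libraries.

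**Figure D4:**
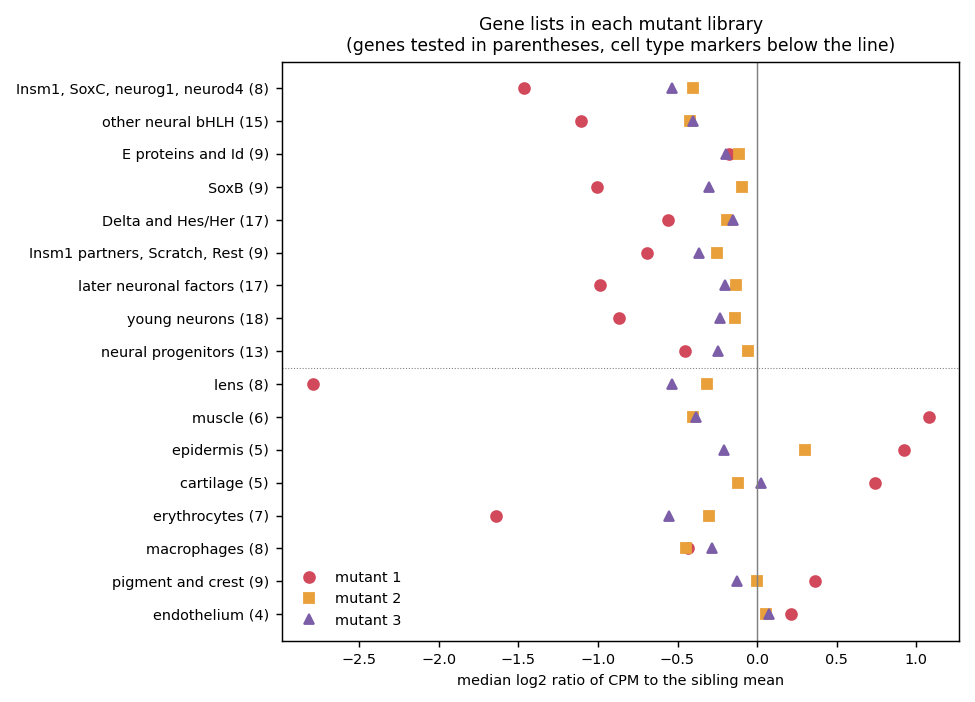
Median log2 ratio of CPM to the sibling mean over the genes of each list, in each of the 3 mutant libraries, with the number of genes tested in parentheses. Mutant 1 lies far from mutants 2 and 3 for lens, muscle, cartilage and erythrocytes. It also does so for the 8 Insm1, SoxC and bHLH genes and, among other lists, for SoxB and later neuronal factors. For epidermis mutant 1 is the highest, but mutants 2 and 3 differ as well. Siblings are not drawn, and the erythrocyte median of sibling 1 was also low, at -0.81. The medians of the 8 genes are below 0 in all 3 libraries, as are those of every other relay list and of lens, erythrocytes and macrophages.

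The genes whose profile over the 6 libraries was most like that of a given gene were found as the smallest root mean square difference of centred log2 CPM among 20873 named genes. For *insm1a* this was *pou3f2a*, a neural POU factor, at 0.05, and its level was 41.6 CPM in siblings and 17.7 CPM in mutants. *chmp5* was next and almost as near, also at 0.05, with 3.18 CPM in siblings and 1.33 CPM in mutants. For *sox11a* the difference to *dync1i1*, a dynein subunit gene that was near but not the nearest, was 0.06. *neurod4* was most like *nexmif* at 0.03 with *ina*, an intermediate filament gene of young neurons, next at 0.03, and *ina* also stood first for the longer *sox4* entry at 0.07. *neurog1* was most like *ash2l* at 0.02 and the shorter *sox4* entry was most like *cnrip1* at 0.05. Next came *lrrtm2* at 0.07 for the longer *sox4* entry, *rspo3* at 0.03 for *neurog1* and *chst3* at 0.06 for the shorter *sox4* entry. With 6 libraries that differ mainly by group and by mutant 1, many genes share such profiles, and the measure describes these libraries only.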

How the data were processed

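Per the labels, polyadenylated RNA of 6 head pools was sequenced. The submitters' processing notes name HISAT2 2.0.4, HTSeq 0.9.1 and GRCz11. The methods name both featureCounts and HTSeq for counting, and whether strand was used is not given in the sources used here, so overlapping or near-identical genes carry that uncertainty. The counts deposited by the authors are whole reads per gene without normalization. The FPKM values deposited by the authors follow from these counts, the library totals and 1 length per gene (largest relative deviation 3.17e-07 over 25681 genes).

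R 4.3.3 with edgeR 4.0.16 was used for the main tests: low genes were removed by filterByExpr, libraries scaled with TMM factors, and p values of the quasi-likelihood test adjusted after Benjamini-Hochberg over all genes. A gene was called at an adjusted p of 0.05 or lower. Shares of 2 copies were compared by two-sided exact permutation tests in scipy 1.17.1, with the libraries treated as unpaired. Same-numbered libraries deviated together (correlations of 0.34, 0.38 and 0.45 over 24277 genes, against -0.23 to -0.13 for different numbers), so the numbers were taken to pair the libraries. Each gene was centred within its group before correlating. Values above 0 for equal numbers therefore push those for different numbers below 0, and the latter add no separate evidence. The pairing comes from the data, and the labels do not give its source. The alternatives were a replicate block, DESeq2 1.42.0, scaling by RLE or by totals only, a minimum of 10 counts per library or no minimum, and fits that omit each library in turn. limma 3.58.1 was also run on log2(FPKM + 0.1) and log2(FPKM + 1) for genes with 0.5 FPKM or more in 3 libraries, and on unfiltered log2(FPKM + 1). The scripts were run on simulated data in which all libraries shared a mean profile and a dispersion, apart from the changes put in. Those data held neither an outlying library nor replicate pairs, so they cannot show how the fits handle these.

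The members and lists were chosen with earlier results of these data known. Of 169 listed symbols 158 matched an entry, and 42 of 177 entries matched by a name without its copy letter. From each list of the relay, the genes called (up to 4 a direction, by adjusted p) and the most abundant one per length are named. The rule for likeness named *sox4a*, and both *sox4* entries were used in its place. Results for 2 further factors of the group, for the pair they form and for 1 gene of the likeness search are not reported here, and counts over the factors leave them out. The adjustment still counts the 4 planned pairs, with the omitted one as least significant.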

Additional observations from a re-analysis of the deposited data

How the results depend on the processing

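All 120 fold changes of the 8 genes under the 15 alternatives were negative, so no direction turned. These fits reused the same 6 libraries, and in 7 of the 8 genes the groups did not overlap. A turn was therefore unlikely from the start. The calls depended on the fit. Of the 8 genes, those called lower numbered 1 with all libraries, 6 with the replicate block, 4 with DESeq2 (*insm1a*, both *sox11* copies and the longer *sox4* entry) and 2 without a low-count filter (both *sox11* copies). They numbered 0 with library sizes alone in edgeR and with limma on log2(FPKM + 1), log2(FPKM + 0.1) or unfiltered log2(FPKM + 1). With library sizes alone the median of all genes shifted to -0.11, and with log2(FPKM + 0.1) to -0.13.

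Leaving out 1 library gave 0 to 6 genes called lower: 6 without mutant 1, and 0 in edgeR without mutant 2, mutant 3, sibling 1, sibling 2 or sibling 3. The adjusted p of *sox11a* then ran from 0.00161 to 0.118, and over the alternatives with all libraries from 1.4e-04 to 0.106.

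Over all genes, 929 were called lower and 961 higher. These counts were 1681 and 1768 with DESeq2, 1605 and 1479 with the replicate block, 519 and 400 with library sizes alone, and 337 and 337 with limma on log2(FPKM + 1) without a filter. They were 618 and 418 with log2(FPKM + 0.1), and 724 and 438 with log2(FPKM + 1). Leaving out 1 library gave 110 to 2029 lower and 247 to 2040 higher, both highest without mutant 1. The 17 calls in the 8 lists became 32 with DESeq2, 34 with the block, 11 with library sizes alone, 6 with unfiltered FPKM and 3 to 43 with 1 library left out. The differences in the shares of copies kept their sign with FPKM in place of counts and with each library left out.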
